A study of Homo sapiens with 4 samples.

Results

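The baseline transcriptome of MOLM-13 cells was described from the 2 control libraries of a CRISPR experiment. MOLM-13 is an established human acute myeloid leukaemia (AML) cell line with monocytic features, which carries a KMT2A-MLLT3 fusion and an internal tandem duplication of the receptor gene FLT3. Both control libraries came from cells given lentiviral CRISPR-Cas9 with a vector labelled EV, and 2 further libraries, not compared here, came from cells given sgKAT6A, which targets the histone acetyltransferase gene KAT6A. The labels leave out what the EV vector holds, when cells were harvested and whether the EV replicates were separate cultures. The members are the gene symbols with a mean of at least 1 TPM, the usual length-corrected unit of RNA abundance, over the EV libraries, 12438 of the 27800 symbols in the table, which is 44.7%. TPM is scaled to a fixed total in each library and corrected for transcript length, so levels can be set side by side between genes. In this text a pair of values is always EV replicate 1 and then EV replicate 2. With 1 group of 2 libraries no test between conditions applies, and the spread between these libraries, which may be technical, is the measure of error.

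Granulocyte-monocyte progenitors are the bone marrow cells that give rise to neutrophils and monocytes. They are driven by the factors PU.1 and C/EBP alpha, and they fill the primary, or azurophil, granules with serine proteases before later granules and surface receptors appear. Monocytes make lysozyme, S100 proteins, the lipopolysaccharide co-receptor CD14 and integrins, not all of which are particular to them. In leukaemias with a KMT2A fusion, late HOXA genes and their cofactor MEIS1 are kept on and maturation is blocked.

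All 7 genes used to check the cell identity were above 1 TPM in both libraries. LYZ, which encodes the antibacterial enzyme lysozyme, was at 7060 and 8068 TPM. ELANE, neutrophil elastase, was at 1494 and 607 TPM. IRF8, a factor of the monocyte branch, was at 210 and 214 TPM, and the progenitor factor MYB was at 141 and 127 TPM. These 4 genes kept the same order in both libraries, with no overlap of their values. MPO, myeloperoxidase of the azurophil granule, was at 69.7 and 54.8 TPM. The cytokine receptor gene FLT3 was at 61.0 and 59.4 TPM, and HOXA9 was at 54.7 and 51.7 TPM. The range of MPO enclosed both values of FLT3, so these neighbours in the order did not differ beyond their spread. The targeted gene of the series, KAT6A, was at 16.2 and 16.7 TPM in these control cells.

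Among protein-coding symbols, 10683 of 19066 (56.0%) were at a mean of 1 TPM or more, and 3416 (17.9%) were at 0 in both libraries. The median of those at 1 TPM or more was 14.8 TPM. By level, 4049 lay from 1 to below 10 TPM, 5668 from 10 to below 100 TPM, 854 from 100 to below 1000 TPM and 112 from 1000 TPM. The threshold fell within a continuum, with LMNTD2 at 0.887 and 1.11 TPM just outside and PRKCE, a protein kinase C gene, at 0.908 and 1.09 TPM just inside. The RNA was concentrated in few genes. On the mean of the libraries, the 10 most abundant protein-coding symbols held 12.1% of all protein-coding TPM, the 100 most abundant held 48.9% and the 1000 most abundant held 76.0%. Both libraries shared 93 of their 100 and 905 of their 1000 most abundant protein-coding symbols.

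**Figure D1:**
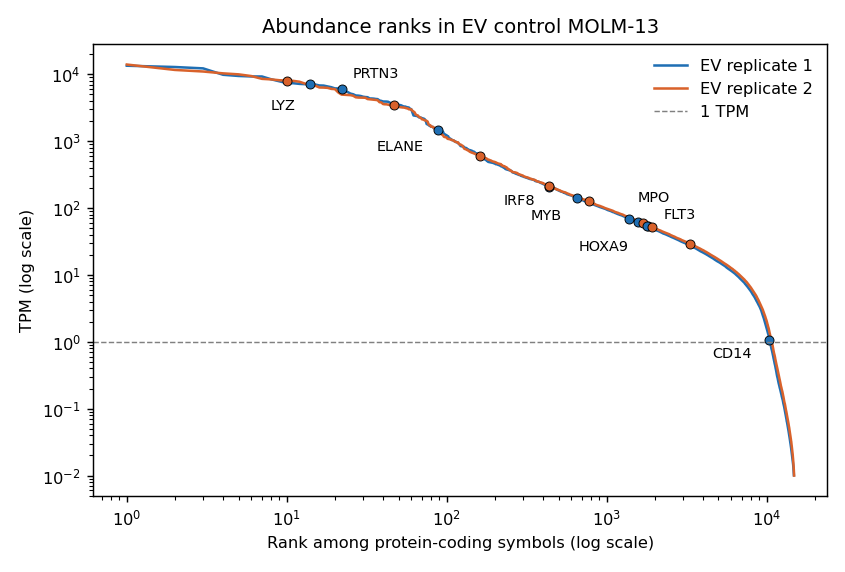
TPM (log scale) of protein-coding symbols against their rank (log scale) in EV replicate 1 (blue) and EV replicate 2 (orange), with 9 myeloid genes marked in each library and labelled beside the replicate 1 point. The curves nearly coincide, while CD14 moves along them from 1.08 to 29.3 TPM.

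Genes of translation led the ranking. Of 86 cytosolic ribosomal protein genes, 83 were at 1 TPM or more, against 56.0% of all protein-coding symbols. These genes took 32.2% and 29.9% of all TPM. They made up 16 of the 20 protein-coding symbols with the highest mean, among them RPS18, RPS27, RPS28, RPL8, RPL41, RPL37A, RPL7, RPLP1, RPL13A, RPL30, RPS29, RPS12, RPS19 and RPS2. RPS18, of the small subunit, had the highest mean and ranked 2 in each library, at 12861 and 11630 TPM. RPS28 led in replicate 1, at 13446 and 9422 TPM, and TMSB4X led in replicate 2. Reads of ribosomal protein genes can be shared with their many processed pseudogenes, so single values in this family are uncertain.

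The other 4 of the top 20 were TMSB4X, FTL, EEF1A1 and LYZ. TMSB4X, which encodes the actin-sequestering peptide thymosin beta 4, was at 9448 and 14008 TPM. FTL, the ferritin light chain of iron storage, was at 5453 and 10337 TPM. EEF1A1, the elongation factor that brings aminoacyl-tRNA to the ribosome, was at 7135 and 8155 TPM. LYZ, a gene of myeloid and some epithelial cells, ranked 12 by mean, at 7564 ± 713 TPM (SD, n = 2). Granule genes followed, with PRTN3, proteinase 3, at rank 26 and SRGN, the granule proteoglycan serglycin, at rank 38. FTH1, the ferritin heavy chain, was further down and apart between the libraries, at 941 and 4783 TPM, and was higher in replicate 2 as FTL was.

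Most genes of the azurophil granule list were expressed. Of 14 genes of this list in the table, 13 (92.9%) were at 1 TPM or more, all of them in both libraries, against 56.0% of all protein-coding symbols. The list median was 361 TPM, against 2.71 TPM over all protein-coding symbols. PRTN3 was at 6062 and 3429 TPM. AZU1, the antibacterial protein azurocidin, was at 1567 and 1136 TPM, and CTSG, cathepsin G, was at 653 and 157 TPM. MPO was the low member among the classical granule enzymes, with its mean of 62.3 TPM far under the 4746 TPM of PRTN3. RNASE2 and RNASE3, ribonucleases of eosinophil and neutrophil precursors, were at 577 and 505 TPM and at 52.5 and 39.0 TPM. DEFA4, a defensin of the same granule, was at 0 in both libraries, and DEFA1, the remaining one of the 15 listed genes, had no entry. BPI, which binds bacterial lipopolysaccharide, was the lowest expressed member at 9.33 and 4.09 TPM.

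Later granulocyte genes were mostly low. Of 18 genes of specific and tertiary granules and mature neutrophils, 7 (38.9%) were at a mean of 1 TPM or more, against 56.0% of all protein-coding symbols. At 5 TPM or more there were 4, and the list median was 0.240 TPM. CSF3R, the granulocyte colony-stimulating factor receptor, was at 62.8 and 82.0 TPM, and CXCR2, a chemokine receptor of neutrophils, was at 16.7 and 20.3 TPM. MMP9, gelatinase of the tertiary granule, was at 1.02 and 85.1 TPM, just over the threshold in replicate 1 and far over it in replicate 2. S100A12 was at 1.95 and 14.7 TPM. The remaining 3 were CEBPE, the factor of specific granules, at 2.99 and 2.59 TPM, PGLYRP1 at 1.403 and 1.08 TPM, and CAMP at 0.906 and 1.53 TPM. The granule genes OLFM4, MMP8 and CRISP3 were at 0, and LTF and LCN2 were under 1 TPM.

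Monocyte genes were widely expressed, 26 of 29 (89.7%) at 1 TPM or more, against 56.0% of all protein-coding symbols. The list median was 21.0 TPM. Below LYZ came CST3, the protease inhibitor cystatin C, at 958 and 869 TPM, and TYROBP, the adaptor DAP12, at 447 and 624 TPM. S100A9, of the calcium-binding dimer calprotectin, was at 198 and 689 TPM. CD14 was at 1.08 and 29.3 TPM and FCN1, the secreted lectin ficolin 1, at 0.243 and 16.5 TPM, so these genes were on in replicate 2 and low or under the threshold in replicate 1. The 3 members under 1 TPM were the non-classical monocyte receptor FCGR3A and the macrophage receptors CD163 and MRC1, the last at 0.

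**Figure D2:**
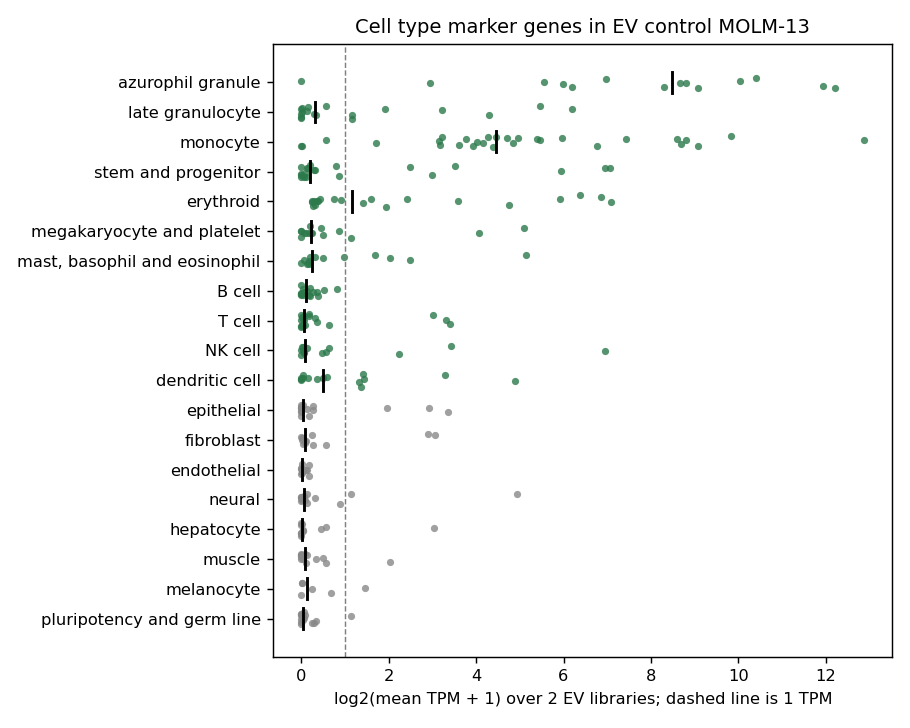
Each point is a marker gene, placed at log2(mean TPM + 1) over the 2 EV libraries, in rows for blood lists (green) and non-blood lists (grey), with a black bar at each list's median. The azurophil and monocyte rows lie mostly right of the dashed 1 TPM line, and their medians are 361 and 21.0 TPM.

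Stem and progenitor genes were split. Of 21, 6 (28.6%) were at 1 TPM or more, against 56.0% of all protein-coding symbols. These 6 were MYB, LMO2, FLT3, MEIS1, MSI2 and GATA2. LMO2, a bridging protein of blood transcription complexes, was at 125 and 119 TPM. GATA2, a factor of stem cells and mast cells, was at 4.69 and 4.56 TPM. CD34, the antigen of immature blood cells, was at 0 in both libraries, as were PROM1, HOPX and the ETS factor ERG. KIT, the stem cell factor receptor, was at 0.214 and 0.275 TPM.

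Of 20 erythroid markers, 10 were at 1 TPM or more, a share near the 56.0% of all protein-coding symbols, and 6 were at 5 TPM or more. Globin RNA was present, with HBA1 at 67.3 and 201 TPM and HBB at 38.6 and 192 TPM. HBG2, fetal gamma globin, was at 53.9 and 64.8 TPM. TFRC, the transferrin receptor used by dividing cells of many kinds, was at 89.7 and 74.5 TPM. GATA1 was at 0.237 and 0.123 TPM, and the red cell factor KLF1 was also under 1 TPM. HBA1 and HBA2 code for the same protein from near-identical genes, so their split, with HBA2 at 39.1 and 12.7 TPM, is uncertain.

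Of 15 megakaryocyte and platelet genes, 3 (20%) were at 1 TPM or more, against 56.0% of all protein-coding symbols. These 3 were NFE2, CD9 and GP1BA. CD9 was at 0.960 and 30.3 TPM and so rested on replicate 2. Mast cell, basophil and eosinophil genes gave 4 of 14 (28.6%), and 1 of 14 at 5 TPM or more. PRG2, eosinophil major basic protein, was at 33.2 and 35.8 TPM. The others were GATA2, TPSAB1 and TPSB2, the mast cell tryptase genes, which are close copies. Dendritic cell genes gave 6 of 15 (40%), and 2 of 15 at 5 TPM or more. They were led by IL3RA, the interleukin 3 receptor chain, at 21.8 and 35.2 TPM.

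Lymphoid genes were largely silent. None of 18 B cell genes reached a mean of 1 TPM, against 56.0% of all protein-coding symbols. Of 19 T cell genes, 3 did: IL7R at 4.76 and 14.3 TPM, CD3D at 7.17 and 10.5 TPM, and LAT at 2.94 and 11.1 TPM. Partners of CD3D in the T cell receptor complex were under 1 TPM, CD3G at 0.140 and 0.432 TPM and CD247 at 0.169 and 0.0703 TPM. NKG7, a membrane protein of cytotoxic granules, was high among 14 natural killer genes at 93.1 and 151 TPM. NCAM1, the CD56 antigen, was at 8.69 and 10.7 TPM and GNLY, granulysin, at 1.09 and 6.38 TPM, while PRF1 and GZMB, the perforin and granzyme B of killer cells, were under 1 TPM.

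Markers of tissues outside the blood set the level of silent genes. Of 99 such markers, 11 were at a mean of 1 TPM or more and 6 at 5 TPM or more. At 0 in both libraries were 33, and the median was 0.0299 TPM. Over all protein-coding symbols, 56.0% were at 1 TPM or more and 17.9% at 0 in both. No endothelial marker of 11 passed. The epithelial genes MUC1, KRT18 and KRT8 passed, with MUC1 at 7.35 and 11.2 TPM, while EPCAM was at 0.132 and 0.274 TPM. MBP, named for myelin basic protein and also transcribed in blood cells, was highest of the 99 at 24.8 and 34.4 TPM. COL6A1, a collagen chain, was at 0.0603 and 12.8 TPM, and SERPINA1, the antitrypsin of liver and monocytes, was at 0.918 and 13.4 TPM, so both rested on replicate 2. The remaining 5 were ACTA2 at 7.46 and 7.16 TPM, OLIG2 at 0.191 and 2.19 TPM, TNNI3 at 2.51 and 3.59 TPM, MITF at 1.43 and 2.04 TPM, and POU5F1 at 1.04 and 1.36 TPM.

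Some large families of tissue-restricted genes were off as groups, and others passed in part. Of all protein-coding symbols, 56.0% were at 1 TPM or more. None of 377 olfactory receptor symbols, 93 keratin-associated proteins, 25 bitter taste receptors, 22 FGF ligands, 12 MAGE-A antigens or 9 PAX factors reached 1 TPM, and all 13 interferon alpha symbols were at 0. Housekeeping families were on as groups, with 78 of 78 mitochondrial ribosomal proteins, 34 of 34 aminoacyl-tRNA synthetases, 27 of 27 spliceosomal SF3 and SNRP proteins and 46 of 48 proteasome subunits at 1 TPM or more. Of 55 cytochrome P450 symbols 9 passed, led by CYP1B1, which metabolises steroids and foreign compounds, at 199 and 406 TPM. Other families also passed in part, with 6 of 44 collagens, 6 of 35 potassium channel subunits, 4 of 24 claudins, 4 of 19 SOX factors and 4 of 55 keratins. So did 3 of 19 WNT ligands, 2 of 53 clustered protocadherins, 2 of 37 GABA and glutamate receptor subunits and 1 of 33 beta defensins.

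Families of blood transcription factors ranged from 1 leading member to several. HOXD, at 0 throughout, was left out of these counts. In 4 of 15, 1 gene held at least 90% of the family's mean TPM, namely GATA2, MYC, GFI1 and HOXC6. The HOXC share rested on HOXC6 alone, at 0 and 0.175 TPM, in a family under the threshold. MYC held 95.0% and 86.0% of its family. All 4 members of the RUNX list and all 6 of the C/EBP list were at 1 TPM or more. So were 9 of 11 in the ETS list and 7 of 9 in the IRF list, against 56.0% of all protein-coding symbols. SPI1, which encodes PU.1, led the ETS group at 334 and 461 TPM, followed by ELF1 at 91.7 and 93.8 TPM. CEBPA was at 271 and 336 TPM and CEBPD at 212 and 220 TPM. IRF8 led its family, ahead of IRF3 at 69.3 and 74.2 TPM, and the lymphoid factor IRF4 was under 1 TPM. The repressor GFI1, which favours granulocytes, was at 46.9 and 45.5 TPM, while its erythroid and platelet relative GFI1B was at 0.357 and 0.181 TPM. LYL1 was at 63.7 and 53.8 TPM against 0.149 and 0.285 TPM for its relative TAL1. MYC, the growth regulator, was at 161 and 93.0 TPM, with MYCL at 8.43 and 15.2 TPM and MYCN at 0. In 12 of 15 factor families the same member was highest in both libraries. The exceptions were HOXB and HOXC, where every member was under 1 TPM, and the E protein and ID group, where TCF3 and ID2 changed places.

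Of the 4 HOX clusters, HOXA held every HOX gene at a mean of 1 TPM or more. These were 9 of its 11, against 56.0% of all protein-coding symbols. None of 10 HOXB or 9 HOXC genes reached 1 TPM, and all 9 HOXD genes were at 0. HOXA9 led at 54.7 and 51.7 TPM, followed by HOXA10 at 17.4 and 15.2 TPM, HOXA7 at 8.25 and 7.95 TPM and HOXA11 at 7.90 and 6.51 TPM. The ranges of HOXA7 and HOXA11 did not overlap but lay close. HOXA2 and HOXA4 were under 1 TPM. Among the TALE cofactors that bind DNA with HOX proteins, PBX2, PBX3 and MEIS1 were on, MEIS1 at 9.46 and 11.2 TPM.

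**Figure D3:**
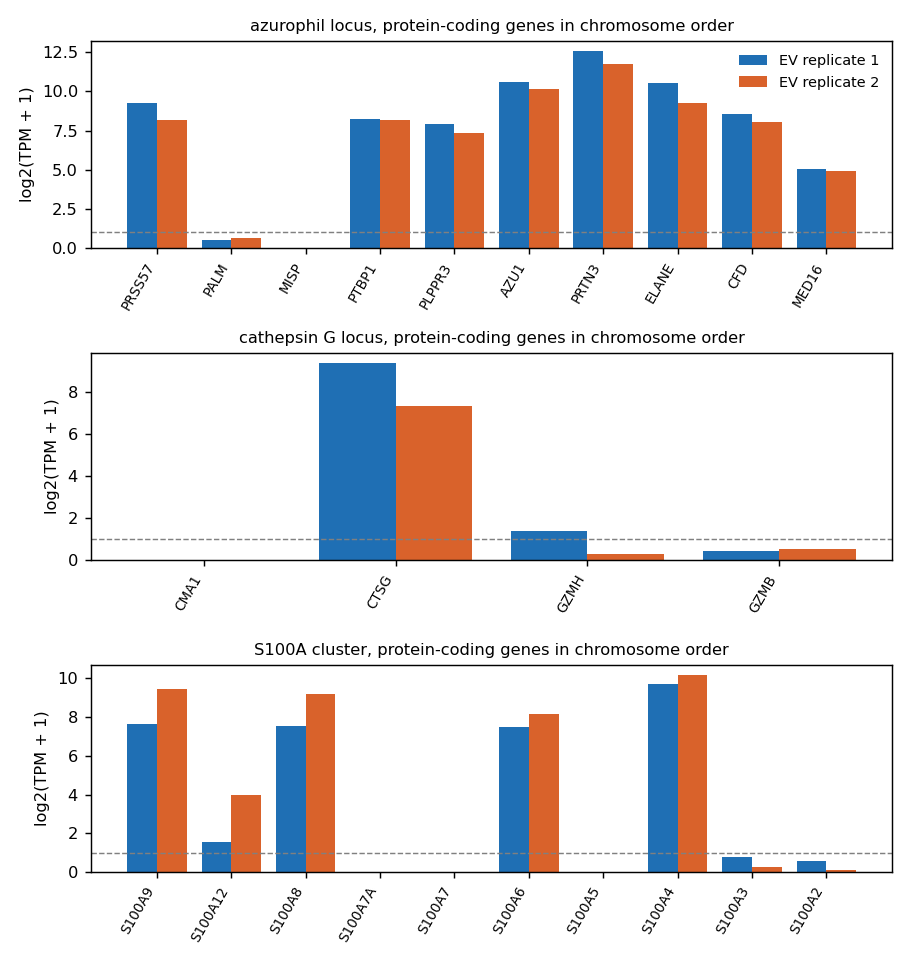
Bars give log2(TPM + 1) of neighbouring protein-coding genes in chromosome order for EV replicate 1 (blue) and EV replicate 2 (orange), with a dashed line at 1 TPM. In the azurophil locus the 5 granule genes PRSS57, AZU1, PRTN3, ELANE and CFD are lower in replicate 2. Their expressed neighbours PTBP1, PLPPR3 and MED16 are lower in it too, and in the S100A cluster the expressed genes are higher in it.

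Expressed and silent genes stood side by side in these clusters. On chromosome 19, PRSS57, AZU1, PRTN3, ELANE and CFD, which encode granule serine proteases or relatives, lay among PTBP1, a splicing factor at 307 and 287 TPM, and MISP, at 0. PLPPR3, between PTBP1 and AZU1, was at 243 and 158 TPM. On chromosome 14, CTSG at 653 and 157 TPM lay beside CMA1, mast cell chymase, at 0, and the granzyme genes GZMH and GZMB, each with a mean under 1 TPM. In the S100A cluster of chromosome 1, S100A4 was highest at 847 and 1149 TPM, and S100A7, S100A7A and S100A5 were at 0.

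Of 26 growth factor receptor genes, 17 (65.4%) were at 1 TPM or more, near the 56.0% of all protein-coding symbols. They were led by CXCR4, the receptor that holds blood cells in the marrow, at 105 and 148 TPM. TNFRSF1B and TNFRSF1A, the receptors for tumour necrosis factor, were at 81.1 and 138 TPM and at 66.3 and 74.1 TPM. Of 14 ligand genes, 2 (14.3%) passed: TNF at 39.96 and 80.1 TPM and FLT3LG, the ligand of FLT3, at 2.64 and 3.09 TPM. CSF2, IL3, THPO, EPO and IFNG were at 0. Among 21 surface antigens studied as AML targets, 16 (76.2%) passed, led by CD70 at 173 and 263 TPM and CD33 at 107 in each library. LILRB4, an inhibitory receptor of monocytic cells, was at 103 and 110 TPM. CLEC12A was at 1.16 and 0.385 TPM, with a mean under the threshold.

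Metabolic and structural isoenzyme families were of both kinds, some resting on 1 member and others split. In 11 of 22 such families, 1 gene held at least 90% of the family's TPM, and the highest member was the same in both libraries in all 22. PKM, the pyruvate kinase of most dividing cells, was at 654 and 771 TPM, with its liver and red cell relative PKLR at 0.141 and 0.132 TPM. LDHB exceeded LDHA, at 833 and 730 TPM against 367 and 297 TPM, and these lactate dehydrogenase subunits did not overlap. HK1 was at 28.3 and 40.5 TPM and HK2 at 23.9 and 28.9 TPM, so their ranges overlapped.

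Cell cycle genes were on, 17 of 18 (94.4%) at 1 TPM or more, against 56.0% of all protein-coding symbols. PCNA, the replication clamp, was at 376 and 361 TPM, and CCND3, the main D cyclin of the list, at 197 and 207 TPM. CCND1 was at 0.296 and 0.174 TPM. CDKN1A, the cell cycle inhibitor p21, was at 314 and 279 TPM, while CDKN2A was at 0.0542 and 0 TPM and CDKN2B at 0.0133 and 0 TPM. Among the BCL2 family, BAX, a pore-forming death protein, was at 459 and 475 TPM, and the survival genes MCL1 and BCL2 were at 64.4 and 70.3 TPM and at 33.3 and 25.2 TPM.

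The EV libraries were close over most genes. Over the 10683 protein-coding symbols at 1 TPM or more, Pearson's r of log2(TPM + 1) was 0.973, a description across genes, and the median absolute difference was 0.18. The median difference, replicate 2 minus replicate 1, was 0.06. Replicate 2 was more than 2-fold above replicate 1, on the log2(TPM + 1) scale, for 396 symbols (3.71%) and more than 2-fold below for 29 (0.271%). It was above by any amount for 60.1% of symbols. These are differences of 1 library against 1 library.

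The genes higher in replicate 2 were led by secreted and surface proteins of macrophages. C3, the central complement protein, was at 3.49 and 191 TPM, a difference of 5.42 on the log2(TPM + 1) scale. MMP9 differed by 5.42 and ACP5, acid phosphatase of macrophages and osteoclasts, by 5.26. CCL24, an eosinophil-attracting chemokine, was at 0 and 27.7 TPM. APOE, a lipid carrier, was at 2.996 and 71.3 TPM, and HLA-DRA, of the class II antigen-presenting molecule, was at 1.74 and 38.0 TPM. The rest of the leading 10 were IL4I1 at 4.62 and 104 TPM, ADAMDEC1 at 0.367 and 22.5 TPM, CD9 and CD14.

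The genes lower in replicate 2 included granule genes and several near-identical copies. CTSG differed by -2.05 and F13A1, clotting factor XIII of monocytes and platelets, was at 20.5 and 4.02 TPM, a difference of -2.10. SMIM11A, SERF1B, SMN1, HBA2 and SIK1 have near-identical copies, so a read can be given to either gene and their differences are uncertain. The others of the leading 10 were SHISA2, TMEM110-MUSTN1 and VAT1L, with differences of -1.53, -1.45 and -1.44.

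Most azurophil genes were lower in replicate 2 and most monocyte genes higher. Of the 13 azurophil genes at 1 TPM or more, 12 were lower in replicate 2 and 4 by more than 2-fold, namely ELANE, PRSS57, CTSG and BPI, with a median difference of -0.46. Of the 26 monocyte genes, 24 were higher in replicate 2 and 12 by more than 2-fold, with a median of 0.91, against 0.06 over all protein-coding symbols at that level. CTSC, cathepsin C, was the azurophil exception in direction, with a difference of 0.05, and CST3 and VCAN, a matrix proteoglycan, were the monocyte exceptions, with -0.14 and -0.19. LYZ differed by 0.19. The summed TPM of the azurophil list was 15936 and 10203, and that of the monocyte list was 9616 and 12218. In bulk RNA, more cells of a type and more RNA per cell cannot be told apart, and the cause of this difference between the libraries was not tested. Other lists also lay higher in replicate 2 among their genes at 1 TPM or more, against 60.1% of all protein-coding symbols. Growth factor receptors were higher in 16 of 17 (median 0.49), AML surface antigens in 14 of 16 (median 0.43), erythroid genes in 8 of 10 (median 0.70), ETS factors in 9 of 9 (median 0.26) and IRF factors in 7 of 7 (median 0.10). The T cell and natural killer lists were higher in 3 of 3 each. Late granulocyte genes were higher in 5 of 7, and stem and progenitor genes in 1 of 6, with a median of -0.05.

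**Figure D4:**
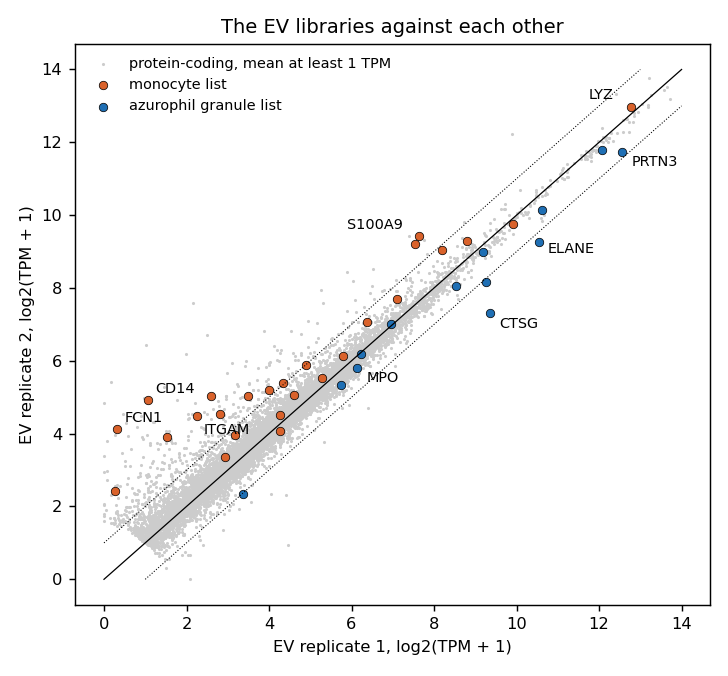
Each grey point is a protein-coding symbol at a mean of at least 1 TPM, by log2(TPM + 1) in EV replicate 1 (x) and EV replicate 2 (y), with the solid line at equality and dotted lines at 2-fold. Monocyte genes (orange) lie mostly above the line, 24 of 26, and azurophil granule genes (blue) mostly below it, 12 of 13.

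Promoter sequence was set beside expression level because granule and ribosomal protein genes, which both have members among the most abundant, differ in it. Of 19066 protein-coding symbols, 15277 (80.1%) had a promoter of 250 bases before to 50 bases after the start in RefSeq, build GRCh38.p14. The 150 bases before the start are printed 5′ to 3′ for 3 azurophil genes, 3 ribosomal protein genes, the factor gene CEBPA and the silent gene CD34. Capitals mark matches, on either strand, to the TATA box TATAAA, the ETS core CCGGAAG, the PU.1 core GAGGAAGT, the GC box GGGCGG, the CCAAT box CCAAT, the cyclic AMP element TGACGTCA, the E-box CACGTG and the NRF1 motif GCGCATGCG. The PU.1 and ETS cores share the letters GGAAG.
PRTN3, chr19:840849-840998, plus strand: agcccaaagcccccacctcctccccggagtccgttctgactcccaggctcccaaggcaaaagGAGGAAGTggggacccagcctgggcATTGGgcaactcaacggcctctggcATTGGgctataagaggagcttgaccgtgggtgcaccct
AZU1, chr19:827687-827836, plus strand: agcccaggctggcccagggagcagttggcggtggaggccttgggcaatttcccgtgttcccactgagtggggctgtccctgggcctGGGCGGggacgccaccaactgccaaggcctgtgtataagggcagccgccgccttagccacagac
CTSG, chr14:24576251-24576400, minus strand: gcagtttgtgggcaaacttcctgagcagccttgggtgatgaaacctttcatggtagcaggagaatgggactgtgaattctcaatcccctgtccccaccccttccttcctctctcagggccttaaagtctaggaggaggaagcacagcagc
RPS18, chr6:33271925-33272074, plus strand: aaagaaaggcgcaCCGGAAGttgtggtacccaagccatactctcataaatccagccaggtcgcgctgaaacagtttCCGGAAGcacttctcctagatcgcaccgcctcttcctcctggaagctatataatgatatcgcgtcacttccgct
RPS27, chr1:153990612-153990761, plus strand: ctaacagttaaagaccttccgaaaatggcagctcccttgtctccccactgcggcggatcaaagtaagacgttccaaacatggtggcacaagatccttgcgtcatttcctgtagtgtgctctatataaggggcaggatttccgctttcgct
RPL41, chr12:56116483-56116632, plus strand: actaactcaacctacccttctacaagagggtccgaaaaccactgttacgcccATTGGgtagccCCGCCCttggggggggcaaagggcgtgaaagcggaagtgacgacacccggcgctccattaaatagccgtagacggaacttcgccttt
CEBPA, chr19:33302535-33302684, minus strand: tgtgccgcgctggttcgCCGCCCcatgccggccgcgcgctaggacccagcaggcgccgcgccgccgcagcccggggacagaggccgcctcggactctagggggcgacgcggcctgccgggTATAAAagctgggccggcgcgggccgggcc
CD34, chr1:207911126-207911275, minus strand: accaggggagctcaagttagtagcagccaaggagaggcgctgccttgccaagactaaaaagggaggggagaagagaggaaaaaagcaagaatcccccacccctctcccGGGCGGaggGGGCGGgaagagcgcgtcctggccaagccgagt
PRTN3 held a PU.1 core at -88 from the start and CCAAT boxes at -63 and -38. Of the 9 azurophil genes with a promoter, only PRTN3 held the PU.1 core. ELANE, MPO, BPI, SRGN and DEFA4 had no promoter entry and were not examined. RPS18 held ETS cores at -137 and -74, and CEBPA a TATA box at -30. CTSG and RPS27 held none of these letters in the printed window.

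Base composition followed the level in steps. The ratio of observed to expected CpG, which is low where methylation has eroded CpG over evolution, had a median of 0.314 in promoters of symbols at 0, 0.630 above 0 and below 1 TPM, 0.823 from 1 to below 10 TPM and 0.891 from 1000 TPM. The ETS core was in 3.06% of promoters at 0, 24.1% from 10 to below 100 TPM and 26.4% from 1000 TPM, against 14.5% of all promoters. Ribosomal protein genes were 67 of the 100 protein-coding symbols with the highest mean. They made up much of the bin from 1000 TPM, so its shares largely describe that family. The TATA box was in 21.6% at 0, 4.54% from 10 to below 100 TPM and 10.3% from 1000 TPM, against 9.50% of all. The PU.1 core was in 2.53% of all promoters and 5.75% of the 87 from 1000 TPM, which is 5 promoters. By list, it was in 1 of 9 azurophil, 1 of 23 monocyte and 4 of 69 ribosomal protein promoters. Among other blood lists, it was in 2 of 9 dendritic cell, 2 of 14 B cell, 1 of 9 megakaryocyte and 1 of 15 late granulocyte promoters. The stem and progenitor, erythroid, mast cell, T cell and natural killer lists had 0. Of all promoters, 59.4% held the GC box, 36.5% the CCAAT box, 8.96% the E-box, 2.83% the NRF1 motif and 2.63% the cyclic AMP element. The granule and monocyte lists lay off the trend in CpG. The 9 azurophil promoters had a median ratio of 0.276 and the 23 monocyte promoters 0.278, near the silent genes. The other blood lists were also low, from 0.134 (dendritic cell) to 0.341 (T cell), except stem and progenitor at 0.744. A low ratio was thus not particular to the expressed lists. The 9 HOXA promoters had a median of 0.906 and the 69 ribosomal protein promoters 0.904, of which 33.3% held the ETS core. These shares are descriptions and a match is not a binding site.

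**Figure D5:**
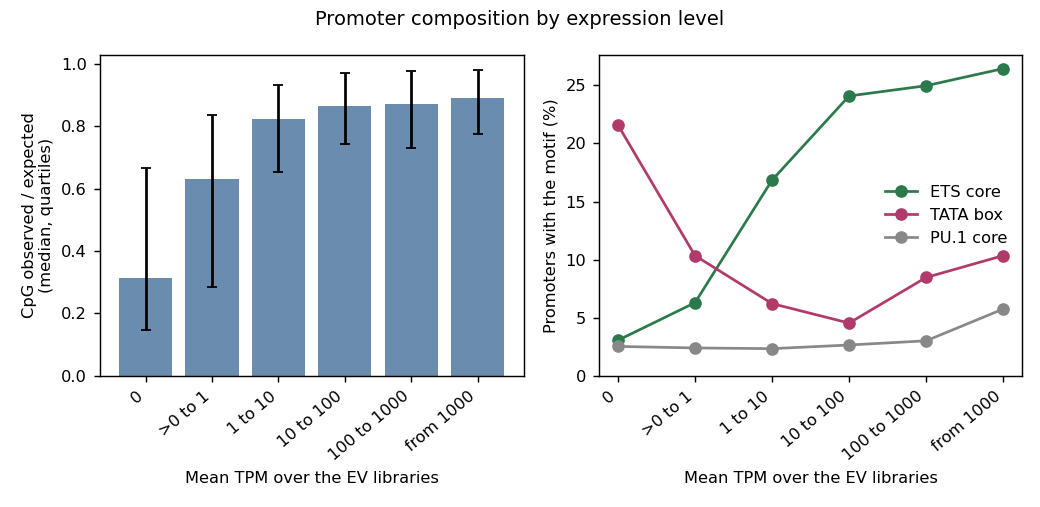
Left, median ratio of observed to expected CpG with quartiles as error bars in promoters, by mean TPM over the EV libraries; right, percent of promoters with the ETS core, TATA box and PU.1 core. The CpG ratio climbs from 0.314 at 0 to 0.891 from 1000 TPM, and the ETS core from 3.06% to 26.4%.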

How the data were processed

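RNA of MOLM-13 cells was sequenced in 4 libraries, and the 2 EV libraries were assigned to their group by title. The table the authors deposited holds 1 TPM value for each gene symbol and library. Per the submitters' processing notes, the tool was Salmon and the build hg38. Its version, the annotation, how transcripts were summed to genes and any selection of RNA were not given in the sources used here. TPM keeps no read depth, so no count model, interval or detection limit was computed, and every library sums to the same total. The sgKAT6A libraries entered only a count over all libraries, which gave 12603 symbols at a mean of 1 TPM or more.

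Values were used as deposited. Symbols were matched to RefSeq for class, position (GRCh38.p14) and promoter, 26815 of 27800 in all and 12208 of the 12438 members. Differences are on log2(TPM + 1), which understates those of low genes, and a 2-fold difference is 1 on that scale. The 2-fold count was run on simulated data with set changes and no spread between libraries, which checks the code and not the calls. The other counts were not simulated. The members, 65 gene lists and 29 families were chosen with earlier results of these data known. Named genes were the identity markers, the 20 most abundant protein-coding genes, up to 4 leading members of each list, every member at 1 TPM or more where a list expected to be silent held 5 or fewer, the first and next members of families, the 10 genes that differed most each way between the EV libraries, and genes at the threshold. Other genes were added after their values were seen. Some genes that this rule names are not reported here. Alternatives were other thresholds and pseudocounts, protein-coding genes alone, and each library alone. Software was Python 3.11.15 with pandas 2.3.3 and numpy 2.4.6.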

Additional observations from a re-analysis of the deposited data

How the results depend on the processing

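No paired analysis was possible because all results come from 1 group, the EV libraries, and no comparison between groups was made. The count of 12438 members ran from 9143 at a threshold of 5 TPM to 13592 at 0.5 TPM, and was 11700 with 1 TPM required in both libraries. Each library alone gave 12082 and 12420. The 100 most abundant symbols held 53.9% of all TPM, 48.9% with protein-coding genes alone and 47.7% without ribosomal RNA symbols, MIR6723 and MIR4461. The azurophil, late granulocyte and monocyte genes at 1 TPM or more numbered 46 together, and 42 at 5 TPM. At 5 TPM the late granulocyte count fell from 7 to 4, erythroid from 10 to 6, mast cell, basophil and eosinophil from 4 to 1, dendritic from 6 to 2 and non-blood from 11 to 6. The number more than 2-fold higher in EV replicate 2 was 396, but 180 with a pseudocount of 5 and 247 over genes with means from 5 TPM. The number more than 2-fold lower was 29, but 57 with a pseudocount of 0.1, 10 with a pseudocount of 5 and 16 over genes with means from 5 TPM. Between promoters at or above and below 1 TPM, the CpG ratio differed by 0.364 and the share with the ETS core by 16.5 percentage points. In genes with 1 listed start, an alternative chosen after seeing the data, these were 0.421 and 18.9, and with bins from EV replicate 1 alone the ETS difference was 16.6. Without SERF1A, SERF1B, SMN1, SMN2, SMIM11A, SMIM11B, HBA1, HBA2 and SIK1, which have near-identical copies and were also chosen afterwards, 393 symbols were higher and 24 lower. Depth cannot be read from TPM, so values near or under 1 TPM are the least certain.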

Other observations

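Protein-coding symbols held 81.2% and 81.6% of all TPM. MIR6723 and MIR4461 alone, which RefSeq gave no class here, held 12.5% and 10.2%, and ribosomal RNA symbols 2.26% and 3.82%. Among long non-coding RNAs, hosts of small nucleolar RNAs led, with SNHG6 at 1890 and 1775 TPM and GAS5 at 818 and 743 TPM. SNORD3A, the U3 RNA that guides ribosomal RNA cleavage, was at 186 and 2273 TPM, far apart between the libraries.

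Of 1862 microRNA gene symbols, 317 (17.0%) were at 1 TPM or more, against 44.7% of all symbols. MIR142, of all blood cells, was at 829 and 789 TPM and MIR223, of myeloid cells, was at 136 and 181 TPM. These genes were chosen after their values were seen, and the values are of the hairpin gene, which does not measure the mature microRNA. Their mature sequences, from RefSeq on GRCh38.p14, are printed 5′ to 3′ with the seed, bases 2 to 8, in capitals, and no seed is shared between them.
hsa-miR-142-3p, chr17:58331245-58331267, minus strand: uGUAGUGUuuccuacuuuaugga
hsa-miR-142-5p, chr17:58331283-58331303, minus strand: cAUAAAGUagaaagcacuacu
hsa-miR-223-5p, chrX:66018895-66018916, plus strand: cGUGUAUUugacaagcugaguu
hsa-miR-223-3p, chrX:66018937-66018958, plus strand: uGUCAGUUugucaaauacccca

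PPP1R27, a phosphatase regulator, was at 1566 and 917 TPM, among the 100 most abundant protein-coding symbols. MT1G, a metallothionein, was at 1628 and 1021 TPM, and CLEC11A, a growth factor of the marrow, was at 1261 and 975 TPM. All 3, chosen after their values were seen, were lower in replicate 2.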
